A study of Schizosaccharomyces pombe with 28 samples.

Results

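The genes described here encode the proteins of the small subunit of the cytosolic ribosome in the fission yeast Schizosaccharomyces pombe. They were chosen by name only, as every gene whose symbol in the probe annotation begins with rps and a digit. That gave 44 genes and 88 probes, out of 4929 gene identifiers and 9858 probes. A further pair of probes, annotated with rps2501 under more than one gene identifier, was set aside. Of the 55 nuclear genes with such a symbol in the RefSeq gene table, the remaining ones were not analysed here.

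The series holds 28 arrays with 2 channels each, and all of them form a single group. Per the labels, each channel carried cDNA from a separate culture of the same wild-type strain, LJY1014, whose genotype is h- leu1-32, grown in YES medium to early-log phase. All samples therefore share the h- mating type and the leu1-32 mutation, and no treatment separates them. Such a self-self array compares repeats of 1 condition, so its log2 ratios are expected around 0. Departures from 0 join differences between repeats with any difference between the channels, such as the dye. These were not told apart here. Ratios carry no absolute level, so the identity of the cells could not be checked against marker genes.

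The small subunit binds messenger RNA and holds the decoding centre, where codons are matched to transfer RNAs. Its proteins are needed in equal amounts, and in growing yeast their genes are transcribed strongly and in concert, under the control of nutrient signalling through the TOR kinase pathway. Many of these proteins are encoded by duplicated genes in fission yeast, named by the protein's number followed by 01, 02 or 03. The copies encode closely similar proteins. Probe sequences were not used here, so hybridisation of a transcript to the probe of its paralogue was not tested, and values of paralogues may share signal.

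Of the 44 genes, 31 belong to 15 families with several copies among them, 14 of 2 genes and rps401, rps402 and rps403 as a family of 3. The other 13 have no partner here under this form of name, although rps23 and rps2302 among them encode the same protein. The genes lie on chromosomes I (22), II (17) and III (5), and were between 429 and 1270 bases long in the RefSeq table. Every value below is a log2 ratio after the array median was subtracted, averaged over the 2 probes of a gene. The sign is that of the deposited ratio and names no channel, because which channel is the numerator, and whether dyes were swapped, is not known here. No 2 arrays held identical values. Arrays nevertheless resembled each other in sets, found by clustering on genes other than the 44 with the number of sets fixed at 3. The first set held arrays 1 to 8 plus 19 and 20, the second 9 to 18 and the third 21 to 28. No label names these sets, which serve here as possible batches and not as study groups. Across all genes but these, the correlation between arrays had a median of 0.655 within a set (0.0263 to 0.897) and 0.0318 between sets (-0.202 to 0.577). The ranges overlapped, so the sets were not uniform. The clustering partly builds in the contrast of the medians. SEs and p-values below that take every array for a separate sample are therefore too small.

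Most small-subunit genes moved with the group's median from array to array, and mostly lay above the array median. Some did not follow it. The SD of the difference from the group's median exceeded the gene's own SD in rps2401 (0.296 against 0.150), rps2402 (0.211 against 0.180) and rps3001 (0.279 against 0.247). The same held for rps29 (0.200 against 0.176), rps2502 (0.289 against 0.287) and rps901 (0.495 against 0.461). The median ratio of the 44 genes was between 0.17 and 0.44 in arrays 1 to 8, 19 and 20, where 36 to 44 of them stood above 0. In arrays 9 to 18 the median ran from -0.08 to 0.12, with 18 to 35 genes above 0. Those 2 sets did not overlap in this measure. The clustering that made the sets included the large-subunit genes, so a separation of ribosomal protein genes between sets may partly be built in. Arrays 21 to 28 split: the 4 arrays 21, 22, 27 and 28 had medians of 0.26 to 0.39, while arrays 23 to 26 had medians of -0.11 to 0.01 with 12 to 23 genes above 0. Arrays 25 and 26 were the lowest of all 28, both at -0.11.

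**Figure D1:**
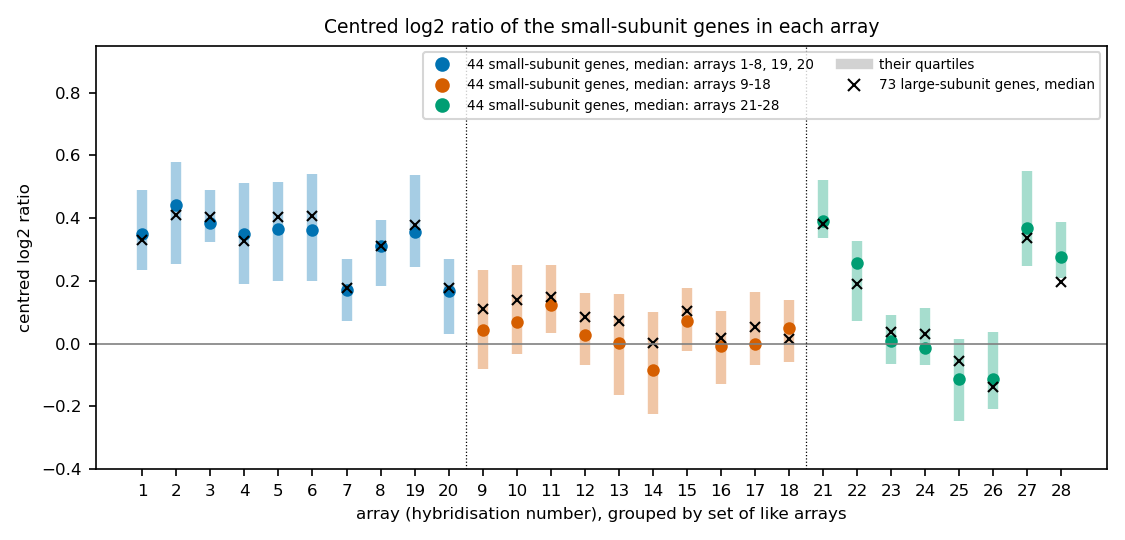
Centred log2 ratio in each of the 28 arrays, grouped by set of like arrays: points are the median of the 44 small-subunit genes, bars their quartiles, and crosses the median of 73 large-subunit genes. The small-subunit median runs from -0.11 in arrays 25 and 26 to 0.44 in array 2, and the large-subunit median stays close to it in every array.

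The large-subunit genes, whose products form the large subunit of the same ribosome, followed the same course. The median of the 73 genes with symbols beginning with rpl and a digit ran from 0.18 to 0.41 in the first set, from 0.0031 to 0.15 in the second and from -0.14 to 0.38 in the third. Within the third set its range was 0.19 to 0.38 over arrays 21, 22, 27 and 28 and -0.14 to 0.036 over the remaining 4. Both subunits were thus high and low in the same arrays. No test of a difference between the subunits was made.

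Spread over arrays was larger in the small-subunit genes than in most genes. Their SD over the 28 arrays had a median of 0.239, with quartiles of 0.199 and 0.275, and its extremes were 0.133 and 0.461. The SD of all 4929 genes had a median of 0.165, with quartiles of 0.126 and 0.220, and for the large-subunit genes it was 0.223. The median share of a small-subunit gene's variance that lay between the 3 sets was 46.7%, which may likewise partly be built in by the clustering.

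In most of the small-subunit genes the variation over arrays exceeded the disagreement of the 2 probes. An F test set the variance between arrays against the disagreement of the 2 probes, with Benjamini-Hochberg adjustment over all genes. It was passed by 40 of the 44 genes (90.9%), against 53.2% of all genes, and by 65 of the 73 large-subunit genes (89.0%). With the 3 sets removed as fixed blocks, 34 of the 44 still passed (77.3%), against 23.4% of all genes. The 4 that did not pass with all arrays were rps901 (adjusted p = 0.721), rps2302 (0.152), rps2802 (0.0953) and rps1502 (0.0605). Whether the 2 probes of a gene share a sequence is not given in the sources used here, and an error common to both would count as variation in this test.

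Means above 0 were frequent. The mean of the 28 arrays was above 0 for 40 of the 44 genes and below 0 for 4, with a median of 0.18 over the genes, against 0.01 over all genes and 0.19 over the large-subunit genes. In limma, with the arrays as independent samples, 33 of 44 (75%) passed with a mean above 0, against 28.6% of all genes, and 11 did not pass. None passed below 0 in limma, where 23.3% of all genes did, and 0 had an unadjusted p under 0.05 below 0. When limma took the sets as a random block, 6 passed above 0 (13.6%), against 0.690% of all genes, and 0 below. That fit used 1 correlation for all genes and had only 3 sets. Its p-values may therefore also be too small where most of a gene's variance lay between sets. For the large-subunit genes the counts above 0 were 62 of 73 (84.9%) and, with the block, 10 of 73 (13.7%).

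The count of genes past 0 differed between the sets. In arrays 1 to 8, 19 and 20 alone, 43 genes passed above 0 (97.7%, against 35.2% of all genes) and 1, rps403, below (2.27%, against 30.0%). In arrays 9 to 18 alone, 18 passed above (40.9%, against 32.9%) and 12 below (27.3%, against 33.0%), shares near those of all genes. In arrays 21 to 28 alone, 7 passed above (15.9%, against 12.3%) and 0 below in limma (against 14.1%), with 15 above and 0 below at an unadjusted p under 0.05. The share above 0 was thus well over that of all genes in the first set alone. The mean was above 0 in each of the sets for 25 of the 44 genes and below 0 in all 3 for none.

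**Figure D2:**
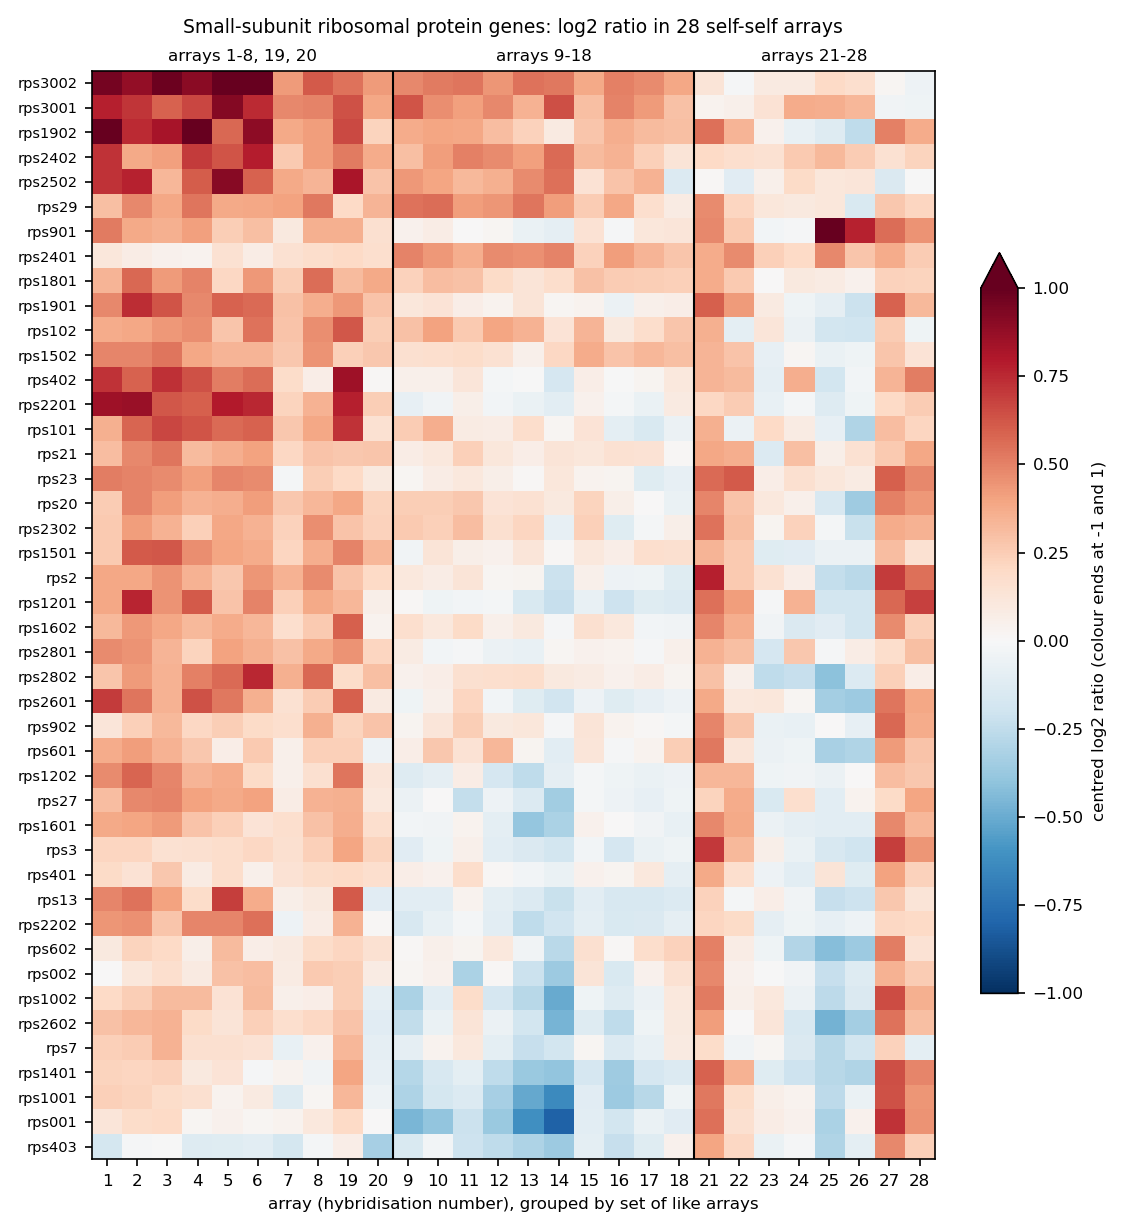
Centred log2 ratio of each of the 44 genes (rows, ordered by mean) in each of the 28 arrays (columns, grouped by set of like arrays), on a colour scale from -1 to 1. rps3002, rps3001 and rps1902 are mostly highest in arrays 1 to 6, whereas rps001 and rps1001 are lowest in arrays 13 and 14 and highest in array 27.

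The 6 genes past 0 with the sets as a block were rps2401, rps2402, rps3001, rps3002, rps1801 and rps29. rps3002 and rps3001 encode S30, a small protein that mammals make as a fusion with a ubiquitin-like protein. rps3002 ranged from -0.05 in array 28 to 1.13 in array 6, with a median of 0.48 and a mean of 0.47 (SE 0.06, n = 28). It was the highest mean of the 44, and the adjusted p in limma was 1.44e-07, or 0.0153 with the block. Of the variance of rps3002, 76.4% lay between the sets. By set it lay between 0.42 and 1.13, between 0.38 and 0.54, and between -0.05 and 0.20, so that arrays 21 to 28 did not overlap with the others.

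rps3001 followed the same order. It ranged from -0.04 to 0.92 with a median of 0.44 and a mean of 0.43 (SE 0.05, n = 28; adjusted p in limma 6.19e-09, and 0.0105 with the block). In the 3 sets it lay between 0.39 and 0.92, between 0.29 and 0.64, and between -0.04 and 0.37, with overlap between neighbouring sets. Of its variance, 64.6% lay between the sets.

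Copies of rps24 encode a protein of the subunit's body. rps2401 was above 0 in all 28 arrays, from 0.03 in array 4 to 0.50 in array 9, with a median of 0.27 and a mean of 0.28 (SE 0.03, n = 28; adjusted p with the block in limma 0.00721). It went against the order of most members: 0.03 to 0.20 in arrays 1 to 8, 19 and 20, and 0.23 to 0.50 in arrays 9 to 18, 2 ranges that did not overlap. Of its variance, 69.4% lay between the sets. rps2402 was also above 0 in all 28 arrays, from 0.13 to 0.79, with a median of 0.36 and a mean of 0.38 (SE 0.03, n = 28; adjusted p with the block in limma 0.0105).

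rps1801, which encodes a protein of the subunit's head, was the third gene above 0 in every array, from 0.0027 in array 23 to 0.58 in array 2. Its median was 0.25, its mean 0.27 (SE 0.03, n = 28; adjusted p with the block in limma 0.0250) and its SD of 0.142 among the 3 lowest. A single sign in all 28 arrays above 0 was thus seen in 3 of 44 genes (6.82%), against 0.487% of all genes and 5 of 73 large-subunit genes. rps29, outside the rule for named genes and given because it completes the 6, ranged from -0.15 to 0.56 with a mean of 0.32 (SE 0.03, n = 28; adjusted p with the block in limma 0.0463).

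High means without a call under the block belonged to rps1902 and rps2502. rps1902 encodes S19, whose human counterpart is mutated in Diamond-Blackfan anaemia. It ranged from -0.25 in array 26 to 1.06 in array 1, with a median of 0.37 and a mean of 0.40 (SE 0.06, n = 28; adjusted p in limma 1.49e-06, and 0.156 with the block). rps2502 encodes S25, which contacts some viral internal ribosome entry sites in mammalian cells. It ranged from -0.14 to 0.91 with a median of 0.34 and a mean of 0.33 (SE 0.05, n = 28; adjusted p in limma 6.11e-06, and 0.171 with the block). By set, rps2502 lay between 0.28 and 0.91, between -0.13 and 0.55, and between -0.14 and 0.19.

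The lowest means were those of rps403, rps001 and rps1001, none of which passed in limma. rps403 ranged from -0.36 in array 14 to 0.48 in array 27, with a median of -0.10, and was above 0 in 6 arrays (mean -0.07, SE 0.04, n = 28; adjusted p in limma 0.127). It passed below 0 in limma without arrays 25 to 28, at a mean of -0.09 (adjusted p = 0.0253), and after adjustment for gene length, at -0.10 (0.0270). It was the only one of the 44 to do so (2.27%), where 23.0% and 21.6% of all genes passed below 0. rps001, which encodes a protein related to the mammalian laminin receptor, had a mean near 0 that joined opposite sets. It ranged from -0.81 in array 14 to 0.72 in array 27, with a median of 0.03 and a mean of -0.02 (SE 0.06, n = 28; adjusted p in limma 0.756). It lay between -0.81 and -0.07 in arrays 9 to 18, and between 0.00 and 0.20 in arrays 1 to 8, 19 and 20, with no overlap. rps1001 showed the same split less fully: -0.64 to -0.04 in arrays 9 to 18 and -0.13 to 0.33 in the first set (mean -0.01, SE 0.06, n = 28; adjusted p in limma 0.905).

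Among the genes of highest SD was rps2201, which encodes a protein of the subunit's platform side known as S15a in mammals. It ranged from -0.13 to 0.87 with a median of 0.15 (SD 0.334, mean 0.23, SE 0.06, n = 28). The high values came from the first set, at 0.22 to 0.87, against -0.10 to 0.09 in arrays 9 to 18, and 73.9% of its variance lay between sets. Its adjusted p in limma was 0.00171, and 0.320 with the block. The lowest SD of the 44 was 0.133, in rps401, which ranged from -0.12 to 0.40 with a median of 0.12 and a mean of 0.11 (SE 0.03, n = 28; adjusted p in limma 0.00115, and 0.496 with the block).

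In the group without a partner under that form of name (rps2, rps3, rps7, rps13, rps20, rps21, rps23, rps27, rps29, rps1401, rps1801, rps2302 and rps2502), means ran from -0.0010 in rps1401 to 0.33 in rps2502, the median SD was 0.232, and 10 of 13 passed in limma, all above 0, or 2 with the block. In the 31 genes with such a partner, means ran from -0.07 to 0.47, the median SD was 0.242, and 23 passed, all above 0, or 4 with the block. Of all genes, 28.6% passed above 0, or 0.690% with the block. rps3, whose protein lies at the entry of messenger RNA, averaged 0.11, and rps2302 and rps23, whose protein lies near the decoding centre, averaged 0.22 and 0.23. These 3 were chosen for their place in the subunit.

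A single member probe stood above 3 in arrays 25 to 28. It was probe 2 of rps901, which encodes S9, a protein near the entry of messenger RNA. This probe read 4.87 in array 25, while probe 1 of the same gene read -0.12 there, a gap of 5.00. In array 26 the probes read 1.64 and -0.10, a gap of 1.73, in array 27 0.56 and 0.56, and in array 28 0.49 and 0.40. In arrays 1 to 24 probe 1 ran from -0.05 to 0.61 and probe 2 from -0.25 in array 14 to 0.49. Probe 2 was therefore above any reading of probe 1 in arrays 25 and 26 alone. The mean of the 2 probes of the paralogue rps902 was 0.00 in array 25 and -0.08 in array 26. Its probes 1 and 2 read -0.19 and 0.19 in array 25, and -0.16 and -0.01 in array 26.

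**Figure D3:**
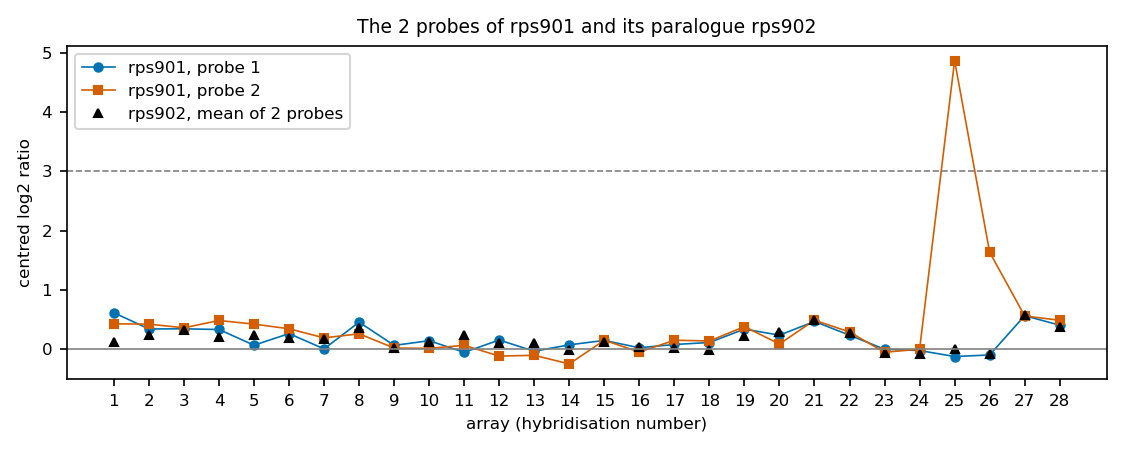
Centred log2 ratio of the 2 probes of rps901 and of the mean of the 2 probes of its paralogue rps902 in each of the 28 arrays, with a dashed line at 3. Probe 2 of rps901 stands at 4.87 in array 25 and 1.64 in array 26, while probe 1 reads -0.12 and -0.10 there.

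Beyond this gene, the highest member probe in arrays 25 to 28 was probe 2 of rps001, at 0.81 in array 27, and in arrays 1 to 24 the highest member probe read 1.31. Over the whole table, 13 of 9858 probes (0.132%) stood above 3 in any of arrays 25 to 28, and 1 of the 88 member probes did. In array 25 there were 12 such probes, all between 4.84 and 4.89, and the next lower probe read 1.15. In array 26 there were 4, between 5.31 and 5.38, and the next lower read 1.80. Arrays 27 and 28 had 2 and 3, between 3.02 and 3.68, none of them a small-subunit probe. No probe of the table was above 3 in arrays 1 to 24. Spot intensities were not used here, so a signal ceiling in 1 channel was not tested.

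The spread of rps901 was smaller without array 25. Its SD was 0.461 with all arrays, the highest of the 44, and 0.222 without array 25. Its mean was 0.30 (SE 0.09, n = 28; adjusted p in limma 0.00300, and 0.506 with the block) with all arrays and 0.22 without array 25 (adjusted p in limma 5.89e-05). With probe 1 alone the mean was 0.18 (adjusted p in limma 2.71e-04) and with probe 2 alone 0.42 (0.0410). Variation common to both probes was not found with all arrays (adjusted p = 0.721) or without array 25 (0.222), but was found without arrays 25 to 28 (2.36e-04).

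Probes of the other members were closer. The absolute difference between the means of the 2 probes had a median of 0.056 over the 44 genes, and its highest value was the 0.234 of rps901, so no gene reached 0.5. After those of rps901, the widest gaps in a single array were in rps2802, at 1.14 in array 4, rps101, at 1.08 in array 19, and rps2502, at 1.03 in array 2, with probe 2 higher in each.

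Paralogues were compared as the difference of their ratios in each array, over 17 pairs. The SD of this difference over arrays had a median of 0.175, from 0.121 to 0.482, against a median of 0.216 for the 929 other pairs of members, whose range was 0.0769 to 0.600. Ranked by this SD among the other 43 members, the paralogue was the nearest gene in 4 of 34 rankings and among the nearest 5 in 15, with a median rank of 7. The median rank of 7 lay in the nearer part of the 43 members, although in most rankings another member was closer than the paralogue.

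Closest to each other were the copies of rps10, rps15 and rps6. The SD of rps1001 minus rps1002 was 0.121 (lowest -0.33, highest 0.13), that of rps1501 minus rps1502 0.123 (lowest -0.26, highest 0.26), and that of rps601 minus rps602 0.135 (lowest -0.25, highest 0.27). rps1002 itself lay between -0.50 and 0.65 with a median of 0.06, rps1501 between -0.12 and 0.62 with a median of 0.16, and rps1502 between -0.08 and 0.53 with a median of 0.27. S6 is the classical phosphorylation target of S6 kinases, downstream of TOR. rps601 lay between -0.32 and 0.52 with a mean of 0.14, rps602 between -0.42 and 0.52 with a mean of 0.08, and each was the nearest of all members to the other. None of these 3 differences passed the F test for variation over arrays (adjusted p = 0.225, 0.749 and 0.212 over the 17 pairs).

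The difference varied beyond the disagreement of the probes in 4 of the 17 pairs. They were rps401 minus rps402 (adjusted p = 3.29e-07), rps402 minus rps403 and rps2401 minus rps2402 (both 1.37e-05), and rps001 minus rps002 (5.18e-05). With the sets removed as fixed blocks, rps401 minus rps402 (1.30e-04) and rps001 minus rps002 (0.00321) still passed. The other 2 did not, at 0.104 for rps402 minus rps403 and 0.217 for rps2401 minus rps2402. Without array 25 the call was made for 6 pairs, the 4 above with rps401 minus rps403 (0.0350) and rps2601 minus rps2602 (0.0392).

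**Figure D4:**
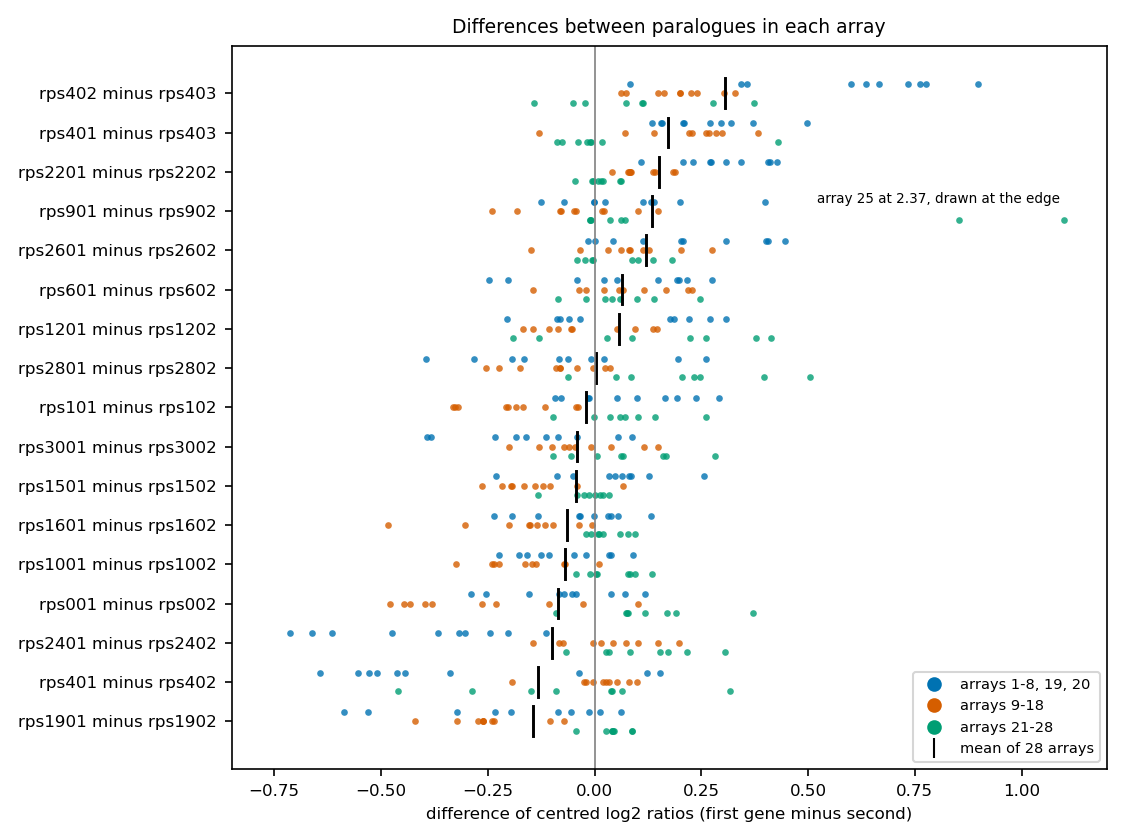
Difference of centred log2 ratios between the paralogues of 17 pairs (rows, ordered by mean), a point for each of the 28 arrays coloured by set of like arrays, with black bars at the mean. rps2401 minus rps2402 lies below 0 in the 10 arrays of the first set and about 0 in the others, and the difference of rps901 and rps902 reaches 2.37 in array 25.

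The copies of rps4 differed most. The protein S4 contacts ribosomal RNA in the subunit's body. rps402 ranged from -0.19 to 0.85 with a median of 0.11 and a mean of 0.24 (SE 0.06, n = 28; adjusted p in limma 5.04e-04, and 0.383 with the block). rps402 minus rps403 averaged 0.30 (SE 0.05, n = 28) and rps402 was the higher in 25 of 28 arrays. This difference was 0.08 to 0.90 in the first set, 0.06 to 0.33 in arrays 9 to 18 and -0.14 to 0.37 in arrays 21 to 28. rps401 minus rps403 averaged 0.17 (SE 0.03, n = 28), with rps401 the higher in 21 arrays. rps401 minus rps402 averaged -0.13 (SE 0.05, n = 28) and ranged from -0.64 to 0.32. The highest value was that of array 25, where probes 1 and 2 of rps401 read -0.19 and 0.45. The rps402 copy stood above rps401 in 8 of the 10 arrays of the first set, by a mean of 0.32 there, against a mean difference of 0.0074 in arrays 9 to 18.

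The copies of rps24 differed in the first set. rps2401 minus rps2402 lay between -0.71 and -0.11 in its 10 arrays, with rps2402 the higher in each. It lay between -0.14 and 0.20 in arrays 9 to 18 and between -0.07 and 0.30 in arrays 21 to 28. The mean over 28 arrays was -0.10 (SE 0.05, n = 28), not past the permutation test (adjusted p = 0.0953 over the 17 pairs). In the first set alone the mean was -0.40 (adjusted p = 0.00830, exact permutation test, n = 10). That test takes the arrays of a set as separate samples although they correlate, so its p-value may be too small.

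For the copies of rps0 the order changed between sets. rps002 ranged from -0.36 to 0.48 with a median of 0.06. rps001 minus rps002 was below 0 in 9 of 10 arrays of the second set, where it averaged -0.27, and above 0 in 7 of 8 arrays of the third, where it averaged 0.12. Over all arrays it ranged from -0.48 to 0.37, and its mean of -0.09 (SE 0.04, n = 28) did not pass (adjusted p = 0.0858, permutation test).

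In mean difference, 9 of the 17 pairs passed a two-sided permutation test with random sign changes over the 28 arrays, adjusted over the pairs. The adjusted p was 8.5e-05, for rps402 minus rps403 and for rps2201 minus rps2202, both of which had the smallest unadjusted p that these permutations can give, 1e-05. The latter averaged 0.15 (SE 0.03, n = 28), with rps2201 the higher in 25 of 28 arrays, and lay between 0.11 and 0.43 in the first set, 0.04 and 0.19 in the second and -0.05 and 0.06 in the third. rps2202 itself ranged from -0.25 to 0.55 with a median of -0.03. rps401 minus rps403 followed (adjusted p = 2.27e-04, permutation test). The other 6 were the pairs of rps26, rps19, rps10, rps16 and rps6 and the pair of rps401 with rps402, with adjusted p from 7.65e-04 to 0.0355 and absolute means of 0.064 to 0.14. Within sets, exact permutation tests adjusted over the pairs were passed by 8 pairs in the first set, 10 in the second and 0 in the third, where 4 pairs had an unadjusted p under 0.05 and the smallest p that 8 arrays allow is 0.00781. The tests within sets also take correlated arrays as separate samples, so their p-values may be too small. The order of the paralogues was the same in the mean of each set for 5 of the 17 pairs.

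rps901 minus rps902 had the highest SD of any pair, at 0.482, and 0.203 without array 25. Its mean was 0.14 (SE 0.09, n = 28) with all arrays and 0.053 without array 25, and neither mean nor variation passed (adjusted p = 0.128, permutation test, and 0.662, F test). rps902 itself ranged from -0.08 to 0.57 with a median of 0.15. The copies rps23 and rps2302, which carry another form of name and stood outside the tested pairs, differed by a mean of 0.01 with an SD of 0.179.

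Gene length went with the mean ratio. Over the 44 genes Spearman's rho between gene length and mean was -0.404 (Pearson's r with log2 length -0.465), a description over genes that share the same arrays. It was -0.446 in the first set, -0.358 in the second and -0.0046 in the third. The 15 genes under 600 bases had a median mean of 0.23, the 18 from 600 to under 900 bases 0.17, and the 11 of 900 bases and over 0.11. The table as a whole had the same tendency: the slope of ratio on log2 length was below 0 in 25 of 28 arrays, with a median of -0.043 per doubling. Genes of the same length range outside both ribosomal groups (1079 genes) had a median mean of 0.06, with 67.5% above 0, against 0.18 and 90.9% for the 44. They were not matched in length within that range, so length may still enter this contrast. After removal of a straight line on length in each array, the median mean of the 44 was 0.12, and 26 passed above 0 in limma (59.1%, against 26.8% of all genes). With the sets as a random block as well, 4 passed (9.09%, against 0.446% of all genes). These were rps2401, rps2402, rps3001 and rps3002, while rps1801 (adjusted p = 0.0829 in limma) and rps29 (0.143) no longer did.

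Genes around the small subunit were read from lists of related function. Proteins of the subunit with other names were ubi3 and ubi5, which encode ubiquitin fused to a ribosomal protein, and cpc2, the RACK1 homologue on the subunit's head. All 3 passed above 0 in limma without the block (against 28.6% of all genes) and with it (against 0.690%). ubi3 ranged from 0.18 to 0.87 (mean 0.47, SE 0.04, n = 28), ubi5 from 0.02 to 0.55 (mean 0.33, SE 0.02, n = 28) and cpc2 from -0.07 to 0.47 (mean 0.24, SE 0.03, n = 28). ubi3 and ubi5 were above 0 in all 28 arrays, as were 0.487% of all genes.

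Assembly factors, which process and export the subunit's precursor and are not part of it, were also read. Of 53 measured, 30 passed above 0 in limma (56.6%, against 28.6% of all genes) and 4 below (7.55%, against 23.3%). With the block, 0 passed in either direction (against 0.690% of all genes above and 0.812% below). Their median mean was 0.10 and their median SD 0.192, and 37 varied beyond probe noise (69.8%, against 53.2% of all genes). By array their median was 0.03 to 0.33 in arrays 9 to 18 and -0.06 to 0.06 in the first set, the reverse of the order seen in the ribosomal protein genes. The difference between these lists was not tested. Of 9 genes of ribosomal protein transcription and TOR signalling, 0 passed above 0 in limma and 5 below (55.6%, against 23.3% of all genes). With the block 0 of these 9 passed in either direction. fhl1 was lowest, with a mean of -0.16 (SE 0.02, n = 28) and an adjusted p in limma of 0.117 with the block. fhl1 encodes a forkhead factor that in budding yeast binds ribosomal protein promoters. The median gene length was 1836 bases in the assembly factors and 2645 in the 9 genes of transcription and signalling. It was 677.5 in the 44 small-subunit genes and 1811 in all genes. Whether length bears on the counts of these lists was not tested.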

How the data were processed

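The deposited table gives log2 ratios of the 2 channels of each array, with 2 probes a gene; scanner, background correction, normalization, dye orientation and genome build are not given in these sources. The authors' log2 values were centred on each array's median, and both probes of each gene were then averaged. The deposited median was -0.293 in array 27 and between -0.085 and 0.010 in all others, so centring raised array 27 the most. Depth has no counterpart in ratios, and the number of arrays limits the precision. Gene names come from the platform annotation, updated through the RefSeq table, in which all 44 genes were found. The 44 genes and the lists of related genes were chosen with earlier results of these data known. Means were tested with limma 3.58.1 in R 4.3.3 (intercept, robust prior, Benjamini-Hochberg over 4929 genes, threshold 0.05), with the sets of like arrays (average linkage on 1 minus the correlation) as a random block in an alternative (estimated correlation 0.4816). Paralogue means were tested with 100000 sign changes, exact within sets. The labels call the cultures separate, but arrays correlate within sets. Limma without the block and the F test of single genes were also run on simulated arrays. Those arrays were independent, so the runs do not cover correlation within sets. The fit with the block and the tests of paralogue pairs were not simulated. Named genes were the 5 of highest and 3 of lowest SD, the 5 of highest and 3 of lowest mean, genes with a probe above 3 in arrays 25 to 28, genes whose probes differ by over 0.5, and paralogue pairs with the 5 highest and 3 lowest SDs of their difference or the 3 largest mean differences. Promoter motifs and probe or protein sequences were not used here.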

Additional observations from a re-analysis of the deposited data

How the results depend on the processing

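The 33 genes above 0 (28.6% of all genes) became 18 in arrays 9 to 18 alone (32.9%), 7 in arrays 21 to 28 alone (12.3%), 6 with the sets as a random block (0.690%; also 6 with the block and without arrays 25 to 28, 0.730%) and 4 with the block after length adjustment (0.446%), where the percentages are the shares of all genes under the same setting. They were 26 to 43 under the other alternatives run. Against 0 genes below 0 with all arrays (limma, 0 at an unadjusted p under 0.05), 1 gene, rps403, passed with no centring (29.7% of all genes), after length adjustment (21.6%), without arrays 25 to 28 (23.0%) and in the first set alone (30.0%), and 12 genes passed in arrays 9 to 18 alone (33.0%). The 4 paralogue pairs whose difference varied became 2 with the sets removed, and the 9 with a mean difference became 0 in arrays 21 to 28 alone (permutation test, 4 at an unadjusted p under 0.05). The mean of rps2201 turned to -0.0194 in arrays 9 to 18 alone. The cause of these changes was not tested. The genes varying beyond probe noise numbered 34 to 41, and 1 member probe stood above 3 at every threshold and scaling tried. With rps2501 included, 34 genes passed above 0. The alternatives without array 25 alone, with the block together with another choice, and with rps2501 were chosen after seeing the data. No paired analysis was possible because all arrays belong to 1 group.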

Other observations

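Pairs of small-subunit genes that neighbour each other on a chromosome in the RefSeq table, and are not paralogues, were rps2 with rps20 and rps27 with rps29. rps2 minus rps20 averaged -0.02 with an SD of 0.130 over the 28 arrays, from -0.31 to 0.29. Each of the 2 was among the nearest genes of the other by this SD, at ranks 3 and 4 of 43. rps27 minus rps29 averaged -0.20 with an SD of 0.281, from -0.77 to 0.19, at ranks 38 and 28. The arrangement of each pair's promoters was not analysed here.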
